A study of Homo sapiens with 8 samples.

Results

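Tight junctions seal the space between neighbouring epithelial cells near the apical surface, and the polarity complexes keep that surface distinct from the rest of the membrane. Claudins form the paracellular strands, MARVEL-domain and JAM-type proteins sit beside them, and scaffolds of the ZO and cingulin families tie them to actin. The PAR and Crumbs complexes mark the apical domain, and the Scribble complex marks the basolateral domain. The sides exclude each other in part through phosphorylation by atypical protein kinase C. The genes described here are 37 listed members of these groups, listed by function, with earlier results of these data known, and matched by symbol. A match was found for 36 of them among the 30434 genes of the table, and CLDN10 had none under its symbol.

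The libraries came from SKBR3, a human HER2-positive breast cancer cell line, and fell into 2 groups of 4. Control cells carried the genotype label WT. The other group was a stable SKBR3 derivative made with lentiviruses that carried 3 separate short hairpin RNAs against FOXA1, a pioneer transcription factor of luminal cells. The labels do not say whether the derivative is a clone or a pool, whether the controls received a vector, or whether the 4 libraries of a group came from separate cultures, so p-values measure only the spread between these libraries, which may be technical.

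Whole-number counts per library summed to between 19087878 and 23786684, and 3 counts, the level taken as the floor of detection, corresponded to 0.123 to 0.153 CPM (counts scaled to the TMM-adjusted library total). The targeted gene checked the labels: FOXA1 fell from 191.7 ± 1.65 to 3.96 ± 0.340 CPM (SD, n = 4 each). All 5 luminal epithelial markers were detected, with a summed level of 11291 to 12619 CPM in control and 10125 to 11058 CPM in knockdown. That sum joins opposite moves: KRT7 fell to 28.9% and KRT19 to 27.3% of the control level, while EPCAM, KRT8 and KRT18 rose to 126.1%, 124.4% and 149.5%. The 6 fibroblast markers in the table summed to 5.27 to 6.98 CPM in control and 10.8 to 11.96 CPM in knockdown. COL3A1 and PDGFRB were higher in knockdown, COL1A1 was lower, and COL1A2, PDGFRA and DCN had 3 or fewer counts in every library. The 5 endothelial markers summed to 21.2 to 22.6 CPM in control and 19.99 to 22.7 CPM in knockdown, of which VWF fell from 5.22 to 0.845 CPM and CDH5 rose from 16.1 to 20.1 CPM. The 4 immune markers in the table summed to at most 1.80 CPM. Their part in the results was not tested. On the second principal component, which carried 1.82% of the variance, control replicate 3 scored -40.1 and the remaining controls scored 9.53 to 16.3. Without that library the counts of called members were 16 lower and 11 higher, against 17 and 11 with it. In these bulk samples, fewer cells of a type and less RNA per cell cannot be told apart.

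Of the 36 members, 31 passed the filter on low counts and 28 of these were called, 17 lower and 11 higher in knockdown (edgeR quasi-likelihood test, adjusted p under 0.05 over all genes tested). The background was high: 77.1% of all 16430 tested genes were called, 37.7% lower and 39.4% higher. Among the tested members 90.3% were called, 54.8% lower and 35.5% higher. With genes limited to a mean of at least 50 counts, 23 of 27 members were called, beside 10279 of all 12421 genes. The median log2 fold change was -0.27 over the tested members and 0.02 over all tested genes. At 2-fold or more, 6 members were lower (19.4% of those tested, background 13.4%), namely CXADR, CLDN1, CLDN8, CGNL1, PATJ and LLGL2. None was higher by 2-fold or more in edgeR (background 14.9%), and none at an unadjusted p under 0.05, in DESeq2 or in limma voom. JAM2 lay just under that size, at 0.99 on the log2 scale. CPM did not overlap between groups for 25 of the 31 tested members (80.6%, background 72%). The list was chosen with earlier results of these data known, so these comparisons with the background describe it only.

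**Figure D1:**
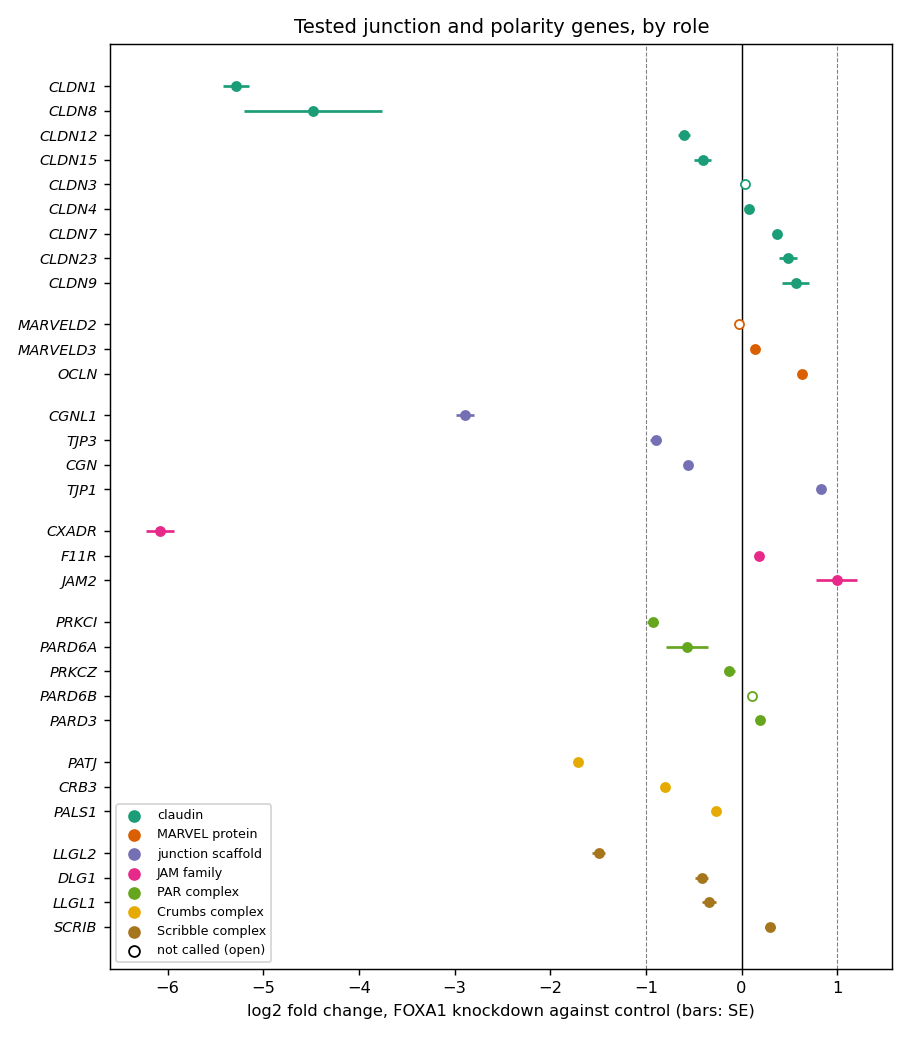
Log2 fold change of FOXA1 knockdown against control for each of the 31 tested members (x axis), grouped and coloured by role, with bars for the standard error from 4 libraries a group and dashed lines at 2-fold. Filled points passed an adjusted p under 0.05 in edgeR; 6 points lie beyond the dashed line on the left and none beyond the one on the right.

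Claudins were the largest group, with 13 of 14 listed genes in the table and 9 tested. Of these, 4 were lower and 4 higher (background 37.7% lower and 39.4% higher). The barrier claudin CLDN1 (chromosome 3, 190305701 to 190322475, minus strand, GENCODE 29 on GRCh38) was almost lost. Control replicates 1 to 4 held 15.5, 15.4, 12.96 and 14.6 CPM of CLDN1 and knockdown replicates 1 to 4 held 0.298, 0.369, 0.458 and 0.370 CPM. Every knockdown library lay far below every control library, and 2.55% of the control level was left (edgeR log2 fold change -5.28, SE 0.137, adjusted p 3.66e-21; exact two-sided permutation p = 0.0286, the smallest that 4 against 4 can give). Groups without overlap give that permutation value by design, and CPM did not overlap for 72% of all tested genes. CLDN8, a claudin of tight epithelia that limits cation passage in the kidney, was a low-level gene. It had 22, 27, 21 and 29 counts in control and 0, 1, 3 and 0 in knockdown, at least 8.27-fold lower against a floor of 3 counts per library (adjusted p of 4.55e-09 by edgeR). The floor covers counting error only.

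The abundant claudins did not follow CLDN1. CLDN4, the most abundant member by CPM and an epithelial barrier claudin, had 456.4, 433.4, 483.8 and 444.6 CPM in control and 478.3, 472.2, 477.3 and 495.5 CPM in knockdown. The groups overlapped, and its log2 fold change was 0.08 (SE 0.037, adjusted p of 0.0388 by edgeR and exact two-sided permutation p of 0.114). That call was lost in 9 of 20 alternatives, among them the stricter criteria. The adjusted p over the 20 ranged from 3.73e-08 to 1, the upper end coming from the test against a 2-fold change. CLDN3, which lies next to CLDN4 on chromosome 7, had 47.6 to 54.8 CPM in control and 50.4 to 52.8 CPM in knockdown, with no call (edgeR log2 fold change 0.03, SE 0.046, adjusted p 0.553). CLDN7, found along the lateral membrane as well as at the junction, rose from 137.2 ± 3.60 to 177.6 ± 8.001 CPM (mean ± SD of 4 libraries each; edgeR log2 fold change 0.37, adjusted p 2.06e-09), without overlap.

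Smaller changes ran in both directions among the remaining claudins. CLDN12 fell to 65.8% and CLDN15, a cation-pore claudin of the intestine, to 75.7% of the control level, with adjusted p-values of 1.02e-09 and 0.00172 by edgeR. CLDN23 rose from 10.5 ± 1.29 to 14.7 ± 0.815 CPM, and CLDN9 from 1.14 ± 0.150 to 1.69 ± 0.228 CPM (SD, n = 4 each). Groups did not overlap for any of these 4 genes. The members below the filter were CLDN2, CLDN6, CLDN11, CLDN16 and JAM3, for which no fitted fold change is given. CLDN6, a claudin of embryonic epithelia, had 0, 2, 1 and 1 counts in control and 8, 6, 9 and 5 in knockdown, at least 2.34-fold higher. It shares 40 bp of exon with TNFRSF12A on the opposite strand, which averaged 2081.5 counts in control and 1071.25 in knockdown. Use of strand in the counting is not given in the sources used here. CLDN11 had 3 to 6 counts in control and 0 to 1 in knockdown. Its control mean was 1.34-fold the knockdown floor of 3 counts. Some control libraries themselves held only 3 counts, so no size of fall is given. CLDN2, a cation-pore claudin, had 3 to 5 counts in control and 0 to 4 in knockdown, and CLDN16 1 to 5 and 1 to 4.

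Divided by exon length, the claudins could be set against each other within a library. The length was the union of GENCODE 29 exons, so a level per kilobase depends on that annotation. In control the order was CLDN4 at 108.3 CPM per kilobase ± 5.15, CLDN7 at 66.5 ± 1.74, CLDN3 at 39.9 ± 2.41 and CLDN12 at 8.35 ± 0.646 (SD, n = 4 each), with no overlap between these neighbours. CLDN23 at 4.84 ± 0.594 and CLDN1 at 4.204 ± 0.341 followed and overlapped each other. In knockdown the leading order of 3 was kept, CLDN23 (6.78 ± 0.376) came before CLDN12 (5.50 ± 0.149) without overlap, and CLDN1 stood ninth of the 13.

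The summed claudin level was 236.5, 228.0, 247.0 and 231.6 CPM per kilobase in control and 256.2, 249.2, 260.9 and 260.5 in knockdown. These sums lay close together, although no control library reached a knockdown library, and without division by length the groups overlapped. CLDN3, CLDN4 and CLDN7 together made up 91.1% ± 0.591 of the sum in control and 94.1% ± 0.171 in knockdown (SD, n = 4 each). CLDN7 alone went from 28.2% ± 0.462 to 33.5% ± 0.943, and CLDN1 from 1.79% ± 0.194 to 0.0418% ± 0.00702. No test was made on these shares, because they sum over listed genes.

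Promoter sequence was examined for 3 short motifs on both strands, in the 250 bases before each RefSeq transcript start (GRCh38.p14), where 25 of the 37 listed members had an entry and together 42 starts. The forkhead core TGTTTAC, the E-box CACCTG and the Grainyhead motif AACNGGTT were searched; none contains another, although matches can share end bases. Of the members lower by at least 2-fold, CXADR, CLDN8 and LLGL2 had no entry and were not searched. The forkhead core was found at 1 of the 42 starts, and at 2.98% of all 35116 starts. The E-box was found at 10 of the 42 (23.8%, against 17.5% of all starts) and the Grainyhead motif at 1 of the 42 (2.38%, against 1.49%). The 8 members with an E-box were CRB3, DLG1, PATJ, PRKCZ and TJP3, which were called lower, and CLDN7, OCLN and TJP1, which were called higher. An annotated exon overlapped 31 of the 42 windows, and of the windows with an E-box only those of PRKCZ and TJP1 were free of exon. A match is a description of these letters only. The stretches of CLDN1, the claudin with the largest fitted fall, and CLDN3, which was not called, are shown. They are limited to the stretch of the window that holds no annotated exon, in the direction of transcription.
CLDN1, chr3:190322476-190322540, minus strand: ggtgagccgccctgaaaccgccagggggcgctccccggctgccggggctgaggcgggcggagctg
CLDN3, chr7:73770271-73770520, minus strand: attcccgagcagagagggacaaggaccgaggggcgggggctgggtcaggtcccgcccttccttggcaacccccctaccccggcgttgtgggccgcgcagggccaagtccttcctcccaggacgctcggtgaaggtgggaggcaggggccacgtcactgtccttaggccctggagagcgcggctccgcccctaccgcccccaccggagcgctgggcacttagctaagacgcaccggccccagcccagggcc
Neither stretch held any of the 3 motifs.

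Among the MARVEL-domain proteins, 2 of 3 tested members rose (background 39.4% higher). OCLN encodes occludin, a strand protein of the tight junction (chromosome 5, 69492292 to 69558104, plus strand). Its level was 57.9, 55.7, 57.8 and 57.5 CPM in control and 91.3, 90.4, 88.5 and 85.4 CPM in knockdown. All knockdown libraries lay above all controls (edgeR log2 fold change 0.64, SE 0.025, adjusted p 1.87e-13; exact two-sided permutation p = 0.0286). MARVELD2 encodes tricellulin, which seals the corners where 3 cells meet. It lies near OCLN on chromosome 5 and showed no call, with 21.1 to 22.6 CPM in control and 20.2 to 22.7 CPM in knockdown (edgeR log2 fold change -0.02, SE 0.042, adjusted p 0.717). MARVELD3 rose from 33.2 ± 1.54 to 36.7 ± 1.13 CPM (mean ± SD of 4 libraries each; adjusted p of 0.00983 by edgeR), a call lost when the shift of its chromosomal neighbours was removed (adjusted p 0.976) and without control replicate 4 (adjusted p 0.0684).

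The junctional immunoglobulin proteins held the largest fitted fall of all tested members. CXADR encodes the coxsackievirus and adenovirus receptor, an adhesion protein of epithelial junctions (chromosome 21, 17512382 to 17593579, plus strand). Control libraries held 25.5, 25.01, 21.7 and 26.5 CPM, and knockdown libraries 0.340, 0.451, 0.357 and 0.278 CPM. The groups were widely separated, and 1.44% of the control level was left (edgeR log2 fold change -6.08, SE 0.148, adjusted p 3.88e-23; exact two-sided permutation p = 0.0286). As counts, the knockdown libraries held 6 to 11.

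F11R, which encodes JAM-A and is the most abundant gene of this group, went the other way. It had 238.1, 247.0, 249.7 and 249.6 CPM in control and 285.5, 273.4, 271.7 and 287.9 CPM in knockdown. The groups did not overlap, and the rise was small (edgeR log2 fold change 0.18, SE 0.027, adjusted p 2.1e-05). The annotated gene AL591806.3 shares 1853 bp of exon with F11R on the same strand, or 38.3% of the exons of F11R. AL591806.3 averaged 649.75 counts in control and 974.75 in knockdown, so the assignment of reads between it and F11R is uncertain. JAM2 was scarce, with 10, 16, 17 and 15 counts in control and 36, 35, 20 and 27 in knockdown (edgeR log2 fold change 0.99, SE 0.213, adjusted p 0.000581). JAM2 shares 58 bp of exon with ATP5PF on the opposite strand, which averaged 2762 counts in control and 3827.25 in knockdown. JAM3 had 2 to 6 counts in control and 3 to 8 in knockdown.

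The cytoplasmic scaffolds were all called, 3 lower and 1 higher (background 77.1% called, 37.7% lower and 39.4% higher). TJP1 encodes ZO-1, which links claudins and occludin to actin (chromosome 15, 29699367 to 29968865, minus strand). It rose from 87.7, 88.3, 79.1 and 86.5 CPM in control to 151.3, 159.7, 149.1 and 147.8 CPM in knockdown. The groups were well apart (edgeR log2 fold change 0.83, SE 0.044, adjusted p 1.04e-15; exact two-sided permutation p = 0.0286). TJP3, which encodes the epithelial paralogue ZO-3, fell from 34.1 ± 1.75 to 18.3 ± 1.06 CPM (mean ± SD of 4 libraries each; edgeR log2 fold change -0.90, adjusted p 2.15e-13). Within a library the log2 ratio of TJP1 to TJP3 counts therefore moved from 1.32 ± 0.143 to 3.05 ± 0.126 (SD, n = 4 each), a value that does not depend on scaling.

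The cingulin pair fell unequally. CGNL1 encodes paracingulin, a junctional partner of ZO-1 (chromosome 15, 57375967 to 57550727, plus strand). It had 44.9, 47.0, 45.6 and 46.1 CPM in control and 6.25, 6.84, 5.09 and 6.39 CPM in knockdown. All knockdown libraries were far lower, at 13.4% of control (edgeR log2 fold change -2.89, SE 0.092, adjusted p 1.21e-22; exact two-sided permutation p = 0.0286). CGN, which encodes cingulin, fell from 78.8 ± 1.58 to 53.4 ± 2.70 CPM (mean ± SD of 4 libraries each; edgeR log2 fold change -0.56, adjusted p 1.15e-11). The log2 ratio of CGN to CGNL1 counts ran from 0.772 to 0.788 over the controls and from 2.97 to 3.36 over the knockdown libraries.
The exon-free promoter stretches of this pair are shown because the paralogues fell by such different amounts, with the single Grainyhead match in capitals.
CGN, chr1:151511137-151511386, plus strand: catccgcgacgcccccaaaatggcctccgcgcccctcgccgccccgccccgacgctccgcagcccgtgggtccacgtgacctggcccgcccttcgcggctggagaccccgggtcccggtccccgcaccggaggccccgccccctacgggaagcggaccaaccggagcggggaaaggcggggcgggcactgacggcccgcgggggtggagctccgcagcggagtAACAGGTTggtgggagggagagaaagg
CGNL1, chr15:57376271-57376504, plus strand: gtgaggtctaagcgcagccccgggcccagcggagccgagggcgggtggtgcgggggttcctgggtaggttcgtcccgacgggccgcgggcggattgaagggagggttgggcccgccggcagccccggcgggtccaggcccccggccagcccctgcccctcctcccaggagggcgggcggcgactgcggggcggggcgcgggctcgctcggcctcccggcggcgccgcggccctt
The match in CGN starts 27 bases before the RefSeq start, and the stretch of CGNL1 held none of the 3 motifs.

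**Figure D2:**
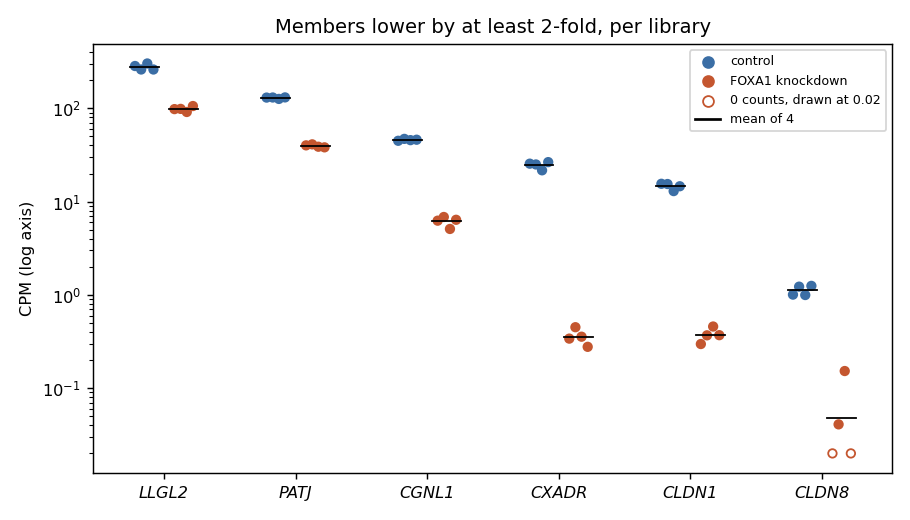
CPM on a log axis in each control (blue) and knockdown (orange) library for the 6 members lower by at least 2-fold, with the mean of each group as a black bar and open points for libraries with 0 counts, drawn at 0.02. The groups are separated in all 6, from LLGL2, which kept 35.5% of its control level, to CXADR, which kept 1.44%.

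The PAR complex defines the apical border through PAR3, PAR6 and atypical protein kinase C. In it, 3 of 5 members were lower and 1 higher (background 37.7% lower and 39.4% higher). PRKCI encodes the iota form of that kinase (chromosome 3, 170222365 to 170305981, plus strand). It had 150.9, 147.8, 128.7 and 146.2 CPM in control and 75.0, 79.2, 75.6 and 71.6 CPM in knockdown. The groups did not overlap (edgeR log2 fold change -0.93, SE 0.060, adjusted p 1.03e-14), and the log2 fold change was -0.47 once the shift of chromosomal neighbours was removed. PRKCZ, for the zeta form, changed little, from 30.6 ± 1.86 to 27.9 ± 1.33 CPM (mean ± SD of 4 libraries each; edgeR log2 fold change -0.13, adjusted p 0.0355, and exact two-sided permutation p = 0.0857). That call was lost in 11 of 20 alternatives and turned in direction, to 0.14, with the regional shift removed. Over all 20, among them the test against a 2-fold change, the adjusted p of PRKCZ ranged from 0.00726 to 1. PRKCZ also shares 25.5% of its exon length with FAAP20 on the opposite strand. The log2 ratio of PRKCI to PRKCZ counts went from 2.23 ± 0.158 to 1.43 ± 0.115 without overlap (SD, n = 4 each).

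PARD3, for the scaffold PAR3, had 51.9 to 54.95 CPM in control and 59.2 to 62.8 CPM in knockdown (edgeR log2 fold change 0.19, SE 0.027, adjusted p 0.000261). Its 50 nearest tested protein-coding genes on chromosome 10 had a median of 0.77, and relative to them PARD3 was lower, at -0.58 with an adjusted p of 4.43e-12 by edgeR. PARD6B, for the PAR6 form of epithelia, had 14.5 to 15.6 CPM in control and 15.3 to 17.0 CPM in knockdown, with no call (adjusted p of 0.133 by edgeR). PARD6A fell from 1.61 ± 0.334 to 1.08 ± 0.228 CPM (mean ± SD of 4 libraries each; adjusted p of 0.0197 by edgeR), with overlapping groups (exact two-sided permutation p = 0.0857). The call on PARD6A was lost in 6 of 19 alternatives, among them DESeq2 (adjusted p 0.0614) and leaving out control replicate 2, knockdown replicate 2 or knockdown replicate 4 (adjusted p of 0.0803, 0.0590 and 0.0700 by edgeR).

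All 3 members of the Crumbs complex fell (background 37.7% lower). This apical complex joins the transmembrane protein CRB3 to the adaptor PALS1 and the multi-PDZ scaffold PATJ. PATJ (chromosome 1, 61742406 to 62178675, plus strand) had 130.3, 130.6, 126.1 and 130.9 CPM in control and 40.1, 41.1, 38.8 and 38.2 CPM in knockdown. The libraries of each group were tightly grouped and far apart, with 30.5% of the control level left (edgeR log2 fold change -1.71, SE 0.027, adjusted p 1.91e-22; exact two-sided permutation p = 0.0286). CRB3 fell from 21.7 ± 0.947 to 12.5 ± 0.436 CPM, and PALS1 from 66.4 ± 1.99 to 55.01 ± 1.29 CPM (SD, n = 4 each). Their log2 fold changes were -0.80 (SE 0.041) and -0.27 (SE 0.027), with adjusted p-values of 1.65e-11 and 2.3e-06 by edgeR, and neither gene's groups overlapped.
PATJ carried the only forkhead core among the member starts searched. Unlike the stretches above, which were limited to exon-free sequence, this window lies within annotated exon sequence. The match is shown in a 30-base stretch that begins 174 bases before the RefSeq start, with an E-box and the forkhead core, read on the reverse strand, in capitals.
PATJ, chr1:61742306-61742335, plus strand: attCACCTGcacGTAAACAgccagggcaac
These letters do not show that a factor bound there.

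The Scribble complex keeps apical proteins out of the lateral membrane, and 3 of its 4 members were lower (background 37.7% lower). LLGL2, a Lethal giant larvae homologue, had the second highest mean per kilobase among members in control, at 71.4 CPM per kilobase ± 5.22, and overlapped CLDN7 there (chromosome 17, 75525080 to 75575208, plus strand). It had 284.1, 260.7, 302.4 and 260.6 CPM in control and 98.1, 98.6, 91.4 and 105.8 CPM in knockdown. Every knockdown library was below every control, at 35.5% of the control level (edgeR log2 fold change -1.49, SE 0.068, adjusted p 2.02e-13; exact two-sided permutation p = 0.0286). Its paralogue LLGL1 fell less, to 79.0%, and the log2 ratio of LLGL1 to LLGL2 counts went from -3.52 ± 0.0744 to -2.38 ± 0.124 (SD, n = 4 each), without overlap. LLGL1 shares 40 bp of exon with FLII on the opposite strand, which averaged 5093 counts in control and 2947 in knockdown.

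DLG1, a membrane-associated guanylate kinase, fell from 148.4 ± 12.2 to 111.2 ± 4.88 CPM, and SCRIB, the large scaffold that names the complex, rose from 160.5 ± 9.40 to 197.4 ± 9.58 CPM (SD, n = 4 each). The log2 fold changes were -0.42 (SE 0.069) and 0.30 (SE 0.055), with adjusted p-values of 1.31e-06 and 8.55e-07 by edgeR, and neither overlapped.

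**Figure D3:**
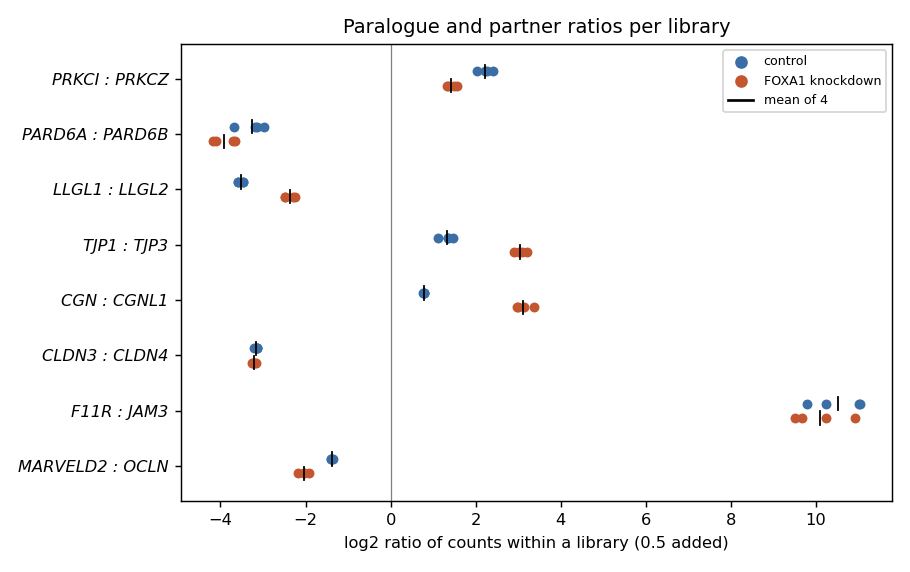
Log2 ratio of the counts of 2 genes within each library (x axis, 0.5 added to each count) for 8 paralogue or partner pairs, with control in blue, knockdown in orange and the mean of 4 as a black bar. Groups are apart for PRKCI to PRKCZ, LLGL1 to LLGL2, TJP1 to TJP3, CGN to CGNL1 and MARVELD2 to OCLN, and overlap for the other 3 pairs.

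Of the 8 within-library ratios, 5 did not overlap between groups. The ratio of MARVELD2 to OCLN went from -1.38 ± 0.0259 to -2.04 ± 0.109 on the log2 scale (SD, n = 4 each). CLDN3 to CLDN4 was -3.16 ± 0.0417 in control and -3.21 ± 0.0353 in knockdown, with overlap. PARD6A to PARD6B and F11R to JAM3 overlapped as well, and the last rests on 2 to 8 counts of JAM3.

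Fold changes in these libraries shifted along chromosomes, so each member was also set beside its 50 nearest tested protein-coding genes. The neighbour medians ran from -0.46 around PRKCI to 0.77 around PARD3. Removing that shift left the 6 members lower by at least 2-fold, with CXADR at -6.18, CLDN1 at -5.01, CGNL1 at -2.77, PATJ at -1.42 and LLGL2 at -1.24 on the log2 scale. With the shift removed CLDN3, MARVELD2 and PARD6B were called, at 0.25, -0.23 and 0.38, and JAM2 reached 1.03. The neighbour median entered each fit as a fixed value, so these calls leave out the spread among the neighbours.

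**Figure D4:**
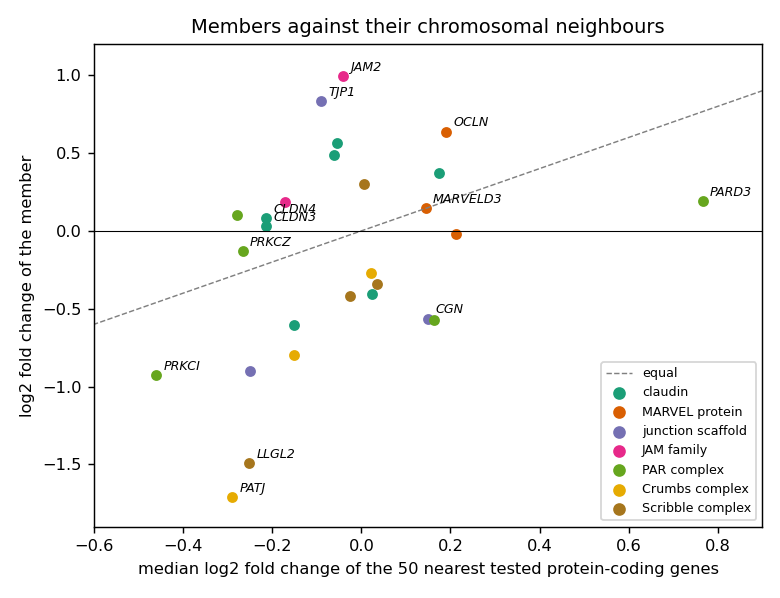
Log2 fold change of each member (y axis) against the median log2 fold change of its 50 nearest tested protein-coding genes (x axis), coloured by role, with a dashed line of equality; the 4 members below -2 are outside the frame. PARD3 lies to the right at 0.77 and below the line, MARVELD3 lies on it, and PATJ and LLGL2 lie well below it.

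A further 53 genes of the same junctions and complexes were listed by their known function, also with earlier results of these data known. Of these, 50 were in the table and 39 were tested. By edgeR 18 were lower and 14 higher (46.2% and 35.9% of those tested, against 37.7% and 39.4% of all tested genes), and 82.1% were called against a background of 77.1%, with a median log2 fold change of -0.13. None of the 6 other claudins in the table passed the filter. Large falls among genes averaging at least 50 counts without overlap were in ESAM, a JAM-type adhesion protein also known from endothelium, ERBIN, a PDZ protein that binds ERBB2, and the scaffold MAGI3. ESAM went from 18.6 ± 1.54 to 1.27 ± 0.231 CPM and ERBIN from 40.2 ± 4.12 to 12.9 ± 0.691 CPM (SD, n = 4 each). MAGI3 went from 57.1 ± 2.22 to 18.9 ± 0.767 CPM (SD, n = 4 each).

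The largest rises by the same rule were in AMOT, MARK1, PARD6G and MAGI1. AMOT encodes angiomotin, which binds PATJ and YAP, and went from 0 to 5 counts per control library to 130.9 CPM ± 3.77 (SD, n = 4) in knockdown. MARK1, a kinase of the PAR1 family, went from 0.705 ± 0.142 to 15.2 ± 0.809 CPM (SD, n = 4 each). PARD6G, another PAR6 form, went from 2.33 ± 0.0720 to 7.11 ± 0.781 CPM, and MAGI1 from 19.6 ± 0.151 to 41.0 ± 0.540 CPM (SD, n = 4 each). The highest adjusted p among these named genes in edgeR was 4.1e-12.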

How the data were processed

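Gene expression was measured by RNA sequencing of mRNA libraries from 8 SKBR3 samples. The authors deposited whole-number raw counts per gene with symbols. FastQC, Salmon 1.9 and DESeq2 and the build hg38 are named in the submitters' processing notes without a role, so the counts may be rounded Salmon estimates; strand and annotation are not given in the sources used here. Groups came from sample titles. The members and lists were chosen with earlier results of these data known.

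Counts were tested in R 4.3.3 with edgeR 4.0.16: filterByExpr (minimum 10 counts, total 15), TMM factors of 0.965 to 1.04, robust quasi-likelihood fit, Benjamini-Hochberg adjustment over 16430 genes and a threshold of 0.05. CPM is the count over the TMM-scaled total of tested genes. Standard errors come from log2 CPM with 0.5 added. Where a group had 3 or fewer counts in every library, folds are bounds against 3 counts. The exact permutation test used all 70 divisions of the libraries. All members are named; other pathway genes are the 4 largest falls and 4 largest rises among called genes averaging 50 or more counts whose groups did not overlap, of which one is not reported here. Positions come from GENCODE 29 (96.5% of identifiers matched) and promoter sequence from RefSeq GRCh38.p14. The test was checked on simulated data. Alternatives were other scalings, filters, DESeq2 1.42.0, limma 3.58.1, a replicate block, stricter thresholds, removal of the regional shift and leaving out each library.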

Additional observations from a re-analysis of the deposited data

Results flagged for a closer look

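Among the 4 libraries of a group, the highest or lowest was singled out if the distance to its neighbour, as a share of the whole range, passed Dixon's 95% critical value. Over 64 groups this singled out 4, where chance gives about 3.2. PRKCZ was low in control replicate 2, at 27.8 CPM against 31.3 to 31.6 in the other controls (gap ratio 0.934). Control replicate 3 was the library in the other cases: PATJ was low at 126.1 CPM against 130.3 to 130.9 (ratio 0.878), LLGL1 was high at 25.3 CPM against 23.4 to 23.7 (ratio 0.866), and DLG1 was low at 130.3 CPM against 153.0 to 156.5 (ratio 0.866). The cause was not tested. Leaving out each library in turn kept PATJ between -1.73 and -1.69, LLGL1 between -0.40 and -0.30 and DLG1 between -0.48 and -0.39 on the log2 scale, and PRKCZ between -0.17 and -0.11.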

How the results depend on the processing

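Over up to 20 alternatives for each gene, 556 of the log2 fold changes of tested members kept direction and side of the threshold, 48 lost the call, 6 gained it and 6 changed sign. The losses include those set by stricter criteria. The test against a 2-fold change kept 6 of 28 calls, and the threshold of 0.01 kept 24 of 28. CXADR, CLDN1, CLDN8, CGNL1, PATJ and LLGL2 kept theirs wherever tested; CLDN8 was below the filter at a mean of 50 counts. Of 31 tested members, a test against a 2-fold change called 6 lower and 0 higher (0 also at an unadjusted p under 0.05). Of the other pathway genes it called 5 lower and 4 higher. That test asks for a larger change. Over all 16430 tested genes it called 3863 in either direction, and the threshold of 0.01 called 11587. The count of members at least 2-fold higher was 1 with upper-quartile scaling, library size only, no filter and the regional shift removed, and 0 to 1 with a library left out (1 without control replicate 2 or 3, or knockdown replicate 3 or 4). Signs changed for MARVELD2 with upper-quartile scaling (0.036) and library size only (0.061), and for PARD3 (-0.58) and PRKCZ (0.14) with the regional shift removed. Leaving out a library gave -0.0058 to 0.064 for CLDN3 and -0.048 to 0.014 for MARVELD2. The cause was not tested. Leaving out a library gave 15 to 17 members lower and 9 to 11 higher. Libraries with the same replicate number did not deviate together (r from -0.031 to 0.056), and with a replicate block 17 members were lower and 10 higher, the call on CLDN4 being lost (adjusted p of 0.0513 by edgeR). For members with a few counts per library, changes below the floor of 3 counts were not detectable at this depth.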
